A study of Mus musculus with 2 samples.

Results

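Gap43, Nefm, Nes, Chrna1, Pmp22 and Rgs4 are best known from nerve, muscle and myelinating cells, and all 6 were measured here in fibroblasts. They are 6 of 7413 genes that could be named on the array, and 6 of the 3220 named genes detected on at least 1 of the 2 arrays. They were selected from these same measurements because their signals were present and differed, so their values are a description and carry no test. A gene was found by reading the number in a probe's identifier as a mouse NCBI gene ID, which the files themselves do not state, and all 8 probes of the 6 genes are reported. The cells were CD1 mouse embryonic fibroblasts, primary connective tissue cells of an outbred strain, whose division had been stopped with mitomycin C. They had been replated on gelatine at 55000 cells per square centimetre and then spent 24 h in serum replacement medium for human embryonic stem cells. One culture received no FGF2 (the control) and the other 40 ng/ml of FGF2, a ligand of receptor tyrosine kinases. There was 1 array for each condition, the labels do not say how many embryos the cells came from, and no spread between cultures can be computed.

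The 6 genes have different jobs. Gap43 encodes a membrane-bound substrate of protein kinase C in the growth cone, the motile tip of an extending axon. Nefm and Nes encode intermediate filament proteins: Nefm the medium neurofilament subunit of axons, and Nes (nestin) a filament protein of neural progenitors that is also made by other immature or dividing cells. Chrna1 encodes the acetylcholine-binding alpha subunit of the muscle nicotinic receptor, the channel that opens at the neuromuscular junction. Pmp22 encodes a membrane protein with several membrane-spanning segments that is abundant in compact myelin of peripheral nerve, and it was also isolated from fibroblasts as a gene of growth arrest (Gas3). Rgs4 encodes a protein that speeds GTP hydrolysis on alpha subunits of heterotrimeric G proteins and so shortens signalling by their receptors.

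The error of these values can be judged only from within the arrays. Detection, set at a score of at least 0.99, held for 8210 of 24044 probes without FGF2 and for 8129 with it. Probes that were not detected had median deposited signals of 140.5 and 132.5 intensity units, which is the background that every deposited signal still contains. For detected probes the bead spread gave a log2 ratio a median error of 0.076. Among probes detected on both arrays, log2 ratios of different probes of the same gene scattered with an SD of 0.18 (305 pairs in 247 genes). The second probes of Nes and Chrna1, which were not detected, are outside this measure. Neither measure covers differences between cultures, and having 1 array for each condition limits the precision further.

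With FGF2, 4 of the 6 genes gave a brighter signal and 2 a dimmer one. The axonal genes Gap43 and Nefm, the filament gene Nes and the receptor gene Chrna1 were higher, and Pmp22 and Rgs4 were lower. At least 2-fold higher were 3 of the 6 (Gap43, Nes and Chrna1), where 1.02% of named genes and 1.37% of all genes, unnamed probes included, were this much higher. At least 2-fold lower were 2 of the 6 (Pmp22 and Rgs4), where 1.61% of named genes and 1.85% of all genes were. Because the genes were picked from this contrast, these shares are given beside the counts and nothing is read from them. In a bulk culture, more cells that carry a transcript and more of it per cell cannot be told apart.

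**Figure D1:**
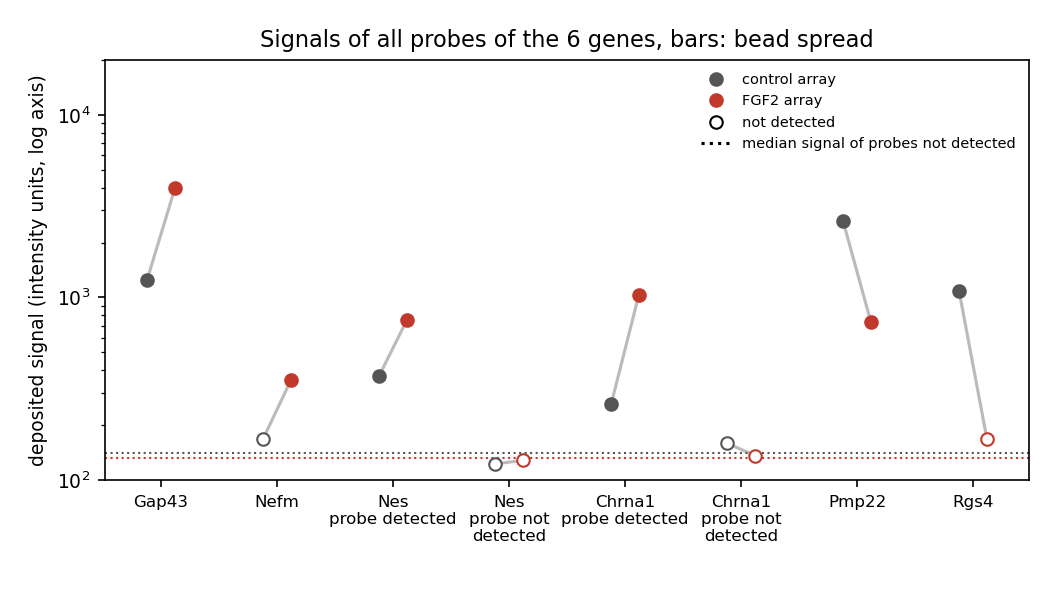
Deposited signal in intensity units, on a log axis, of all 8 probes of the 6 genes without FGF2 (grey) and with FGF2 (red), with open circles where a probe was not detected; bars are the bead spread and are mostly hidden by the points. Lines join the arrays for each probe, dotted lines mark the median signals of 140.5 and 132.5 of probes that were not detected, and the second probes of Nes and Chrna1 lie close to these lines.

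Gap43 was clearly detected in both cultures and higher with FGF2. Its only probe read 1245 without FGF2 and 3954 with FGF2, with bead spreads of 43.8 and 114.7. These signals were 8.86 and 29.8 times the median of undetected probes on their arrays, so little of either value was background. After quantile normalization the values were 1219 and 3920, a log2 ratio of 1.68 with a bead error of 0.066 (3.21-fold higher with FGF2). The authors' processed table, from which background had been subtracted, gave 1106 and 4029, or 3.64-fold. Of the 4 higher genes, Gap43 was the one whose fold differed least between these 2 sets of values. Of 3220 named genes, 9 had a higher ratio.

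Nefm was at the edge of detection. Its only probe read 167.6 on the control array, where its detection score of 0.895 fell short of the threshold, and 351.7 on the FGF2 array, where the score was 1. The control signal was 1.19 times the background median and the FGF2 signal 2.65 times, so the neurofilament transcript was called present in the FGF2 culture alone. The difference is therefore a bound, with the control value raised to the lowest detected signal of its array (191.7 after normalization). With this normalization and floor, Nefm was at least 1.89-fold higher (log2 ratio 0.91). The bead error of 0.084 belongs to the deposited signals, not to the bound. In the authors' processed table the FGF2 value was 232.1 and the control had no value, which gives at least 3.95-fold against the lowest value listed for the control, 58.7.

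Nes was detected on both arrays by 1 of its 2 probes. That probe read 371.2 without FGF2 and 752.1 with it, or 2.64 and 5.68 times background. The normalized values of 361.5 and 763.1 gave a log2 ratio of 1.08 with a bead error of 0.086, a 2.11-fold difference just past 2-fold. In the authors' processed table it was 2.82-fold (232.0 against 654.2). The other Nes probe read 122.5 and 128.1 with detection scores of 0.181 and 0.496, below the background median on both arrays. The nestin difference thus rests on 1 probe. The part of the transcript that each probe reads was not known here.

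Chrna1 had the highest ratio of the 6. Its detected probe read 259.4 without FGF2 and 1038 with FGF2, with detection scores of 1 on both. The control signal was 1.85 times background and the FGF2 signal 7.83 times, so the muscle receptor subunit gene was dim but detected without FGF2. The normalized values of 252.1 and 1059 gave a log2 ratio of 2.07 with a bead error of 0.074 (4.20-fold). Only 2 of the 3220 named genes had a higher ratio. After background subtraction in the authors' processed table the values were 120.2 and 955.2, or 7.95-fold. The second Chrna1 probe read 158.9 and 136.2 with scores of 0.847 and 0.680 and was detected on neither array, so this gene too rests on 1 of 2 probes.

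Pmp22 went the other way. Its only probe read 2612 without FGF2 and 731.6 with FGF2, 18.6 and 5.52 times background. Both values were clearly detected, so the fibroblasts carried this myelin and growth arrest transcript in both cultures. The normalized values of 2627 and 744.6 gave a log2 ratio of -1.82 with a bead error of 0.065 (3.53-fold lower with FGF2), and the authors' processed table gave 3.91-fold (2472 against 632.5). Of the named genes, 15 had a lower ratio.

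Rgs4 was detected without FGF2 only. Its only probe read 1079 on the control array, 7.68 times background, and 166.9 on the FGF2 array, 1.26 times background and with a detection score of 0.928. With the same normalization and floor as for Nefm, Rgs4 was therefore at least 5.48-fold lower, at a log2 bound of -2.45. The bead error of 0.077 belongs to the deposited signals, not to the bound. The authors' processed table listed 939.4 for the control and no value for FGF2, which gives at least 16.1-fold against the lowest FGF2 value listed there, 58.4. The scores of 0.928 for Rgs4 and 0.895 for Nefm were the highest of these probes below the 0.99 threshold, and every detected value had a score of 1.

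**Figure D2:**
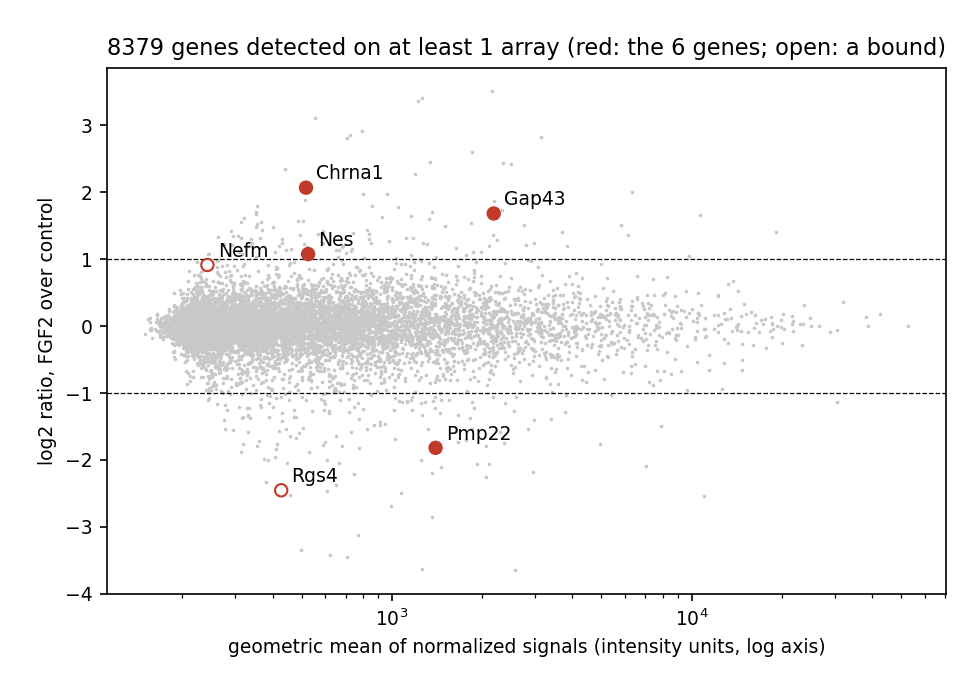
Log2 ratio of FGF2 over control against the geometric mean of the normalized signals (log axis) for 8379 genes detected on at least 1 array, each probe without a name counted as a gene; the 6 genes are red, and open where the ratio is a bound. Dashed lines mark 2-fold; Chrna1 at 2.07 and Rgs4 at -2.45 lie farthest from 0 among the 6, and Nefm at 0.91 lies just inside the line.

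The settings moved the sizes more than the directions. Gap43, Chrna1, Pmp22 and Rgs4 were at least 2-fold apart under every one of 6 settings, which differed in scaling, floor, background and detection level. Nes stood at 1.98-fold when 50 was added to both signals in place of a floor. Nefm passed 2-fold with detection at a score of 0.95 (at least 2.08-fold) and in the authors' processed table. The smallest folds were at least 1.78 for Nefm, with signals as deposited, and 4.98 for Rgs4, with 50 added. In the authors' processed table, which differs in background, scaling and floor together, the fold of Chrna1 was 7.95 in place of 4.20, that of Nefm at least 3.95 in place of 1.89 and that of Rgs4 at least 16.1 in place of 5.48.

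**Figure D3:**
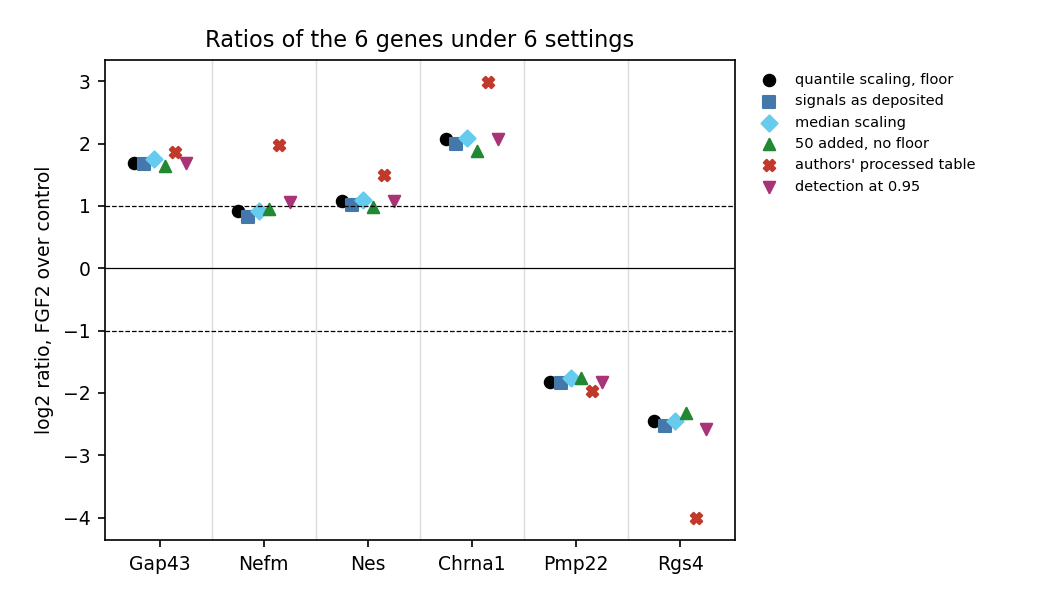
Log2 ratio of FGF2 over control for each of the 6 genes under 6 settings; dashed lines mark 2-fold. The red crosses, which stand for the authors' background-subtracted table, lie farthest from 0 for every gene, from 1.495 for Nes to -4.01 for Rgs4, and no point crosses 0.

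Promoter sequence was available for 4 of the genes, from RefSeq (GRCm38.p6), as windows from 250 bases before to 50 bases after each annotated start. The windows of the receptor gene Chrna1, of Nes and of Rgs4 are shown because these genes have 1 annotated start each and include the genes with the highest and the lowest ratio. Gap43 and Nefm are named only. Capitals mark matches to 5 motifs, searched on both strands: the AP-1 site TGANTCA and the E-box CANNTG, which read the same on both strands and were counted once, the ETS core GGAAG, the TATA box TATAAA and the CArG box. AP-1 and ETS proteins are nuclear targets of growth factor signalling, and E-boxes are bound by basic helix-loop-helix proteins such as the myogenic factors.
Chrna1, chr2:73580289-73580588, minus strand: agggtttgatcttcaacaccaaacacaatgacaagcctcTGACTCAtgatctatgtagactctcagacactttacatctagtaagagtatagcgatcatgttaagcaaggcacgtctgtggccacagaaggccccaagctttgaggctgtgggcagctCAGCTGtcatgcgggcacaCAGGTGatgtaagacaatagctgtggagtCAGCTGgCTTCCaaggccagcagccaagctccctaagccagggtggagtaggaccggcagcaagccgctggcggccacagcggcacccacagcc
Nes, chr3:87970843-87971142, plus strand: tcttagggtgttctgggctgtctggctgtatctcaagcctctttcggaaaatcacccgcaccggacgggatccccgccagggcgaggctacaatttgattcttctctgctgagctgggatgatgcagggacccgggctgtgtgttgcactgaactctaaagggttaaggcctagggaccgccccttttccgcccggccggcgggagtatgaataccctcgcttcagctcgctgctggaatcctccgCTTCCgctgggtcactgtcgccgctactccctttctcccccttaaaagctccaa
Rgs4, chr1:169747593-169747892, minus strand: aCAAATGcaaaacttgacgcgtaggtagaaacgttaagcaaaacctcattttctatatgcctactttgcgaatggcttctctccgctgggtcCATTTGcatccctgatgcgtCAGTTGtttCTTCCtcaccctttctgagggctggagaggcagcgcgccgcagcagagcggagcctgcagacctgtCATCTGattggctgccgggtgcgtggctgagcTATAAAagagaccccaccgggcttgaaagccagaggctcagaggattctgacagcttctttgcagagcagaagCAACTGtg

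The Chrna1 window held 1 AP-1 match, TGACTCA at -211 from the start, 3 E-boxes at -92, -73 and -44, and 1 ETS core at -37, downstream of the last E-box. The Nes window held 1 ETS core, at -4, and none of the other 4 motifs. The Rgs4 window held 5 E-boxes, 1 ETS core and a TATA box at -31. Pmp22 has 4 annotated starts, which the array does not tell apart. Its 4 windows held at least 1 ETS core each and 1 E-box between them. The windows that begin at 63132319 and 63132553 overlap, and the only ETS core of the latter also lies in the former. Among 32851 windows of this length, 7.81% held the AP-1 site, 72.3% an E-box, 71.4% an ETS core, 13.6% the TATA box and 1.63% the CArG box. The E-box and the ETS core are thus present in most windows, and a match describes letters, not binding.

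The related genes of each of the 6 were compared next, from lists chosen with earlier results of these data known. Of 252 genes on 8 lists, 123 had a named probe and 47 were detected, or 38.2% of those with a probe, against 43.4% of all named genes. At least 1.5-fold higher were 3 of the 47, where 4.57% of named genes were, and at least 1.5-fold lower were 9, where 5.06% were. The 47 had a median log2 ratio of -0.09, against 0.03 over all named genes. After quantile normalization none of the 47 was 2-fold higher, whereas 2 were 2-fold lower.

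Growth cone and axon guidance genes did not share the ratio of Gap43. Of 30 with a named probe, 18 were detected, or 60%, against 43.4% of all named genes. Of the 18, 13 had ratios below 0 and 5 above. Of the 3220 named genes detected, 1449 had ratios below 0 and 1768 above. Of the 13, 4 (Basp1, Sema3b, Unc5c and Epha4) were detected on the control array only, which fixes the sign of their bounds. None of the 18 was 1.5-fold higher and 6 were at least 1.5-fold lower, where 4.57% and 5.06% of named genes were. The median log2 ratio was -0.25, or -0.049 among the brighter genes alone. Marcks, like Gap43 a membrane-bound substrate of protein kinase C, read 4771 without FGF2 and 1804 with FGF2 and was 2.65-fold lower (log2 ratio -1.41). Its relative Marcksl1 had a log2 ratio of 0.05 on its brightest probe and -0.26 on its next. Basp1, a growth cone protein grouped with Gap43 and Marcks, was detected on the control array only, with a bound of -0.28. Among guidance genes, the netrin receptor gene Unc5c and the semaphorin gene Sema3b were detected on the control array only, at least 1.97-fold and 1.83-fold lower. Slit2, a secreted repellent, was 1.79-fold lower (893.3 against 475.8 as deposited). Its receptor gene Robo1 had a log2 ratio of -0.27. The genes above 0 included the semaphorin receptor gene Plxna2 (0.33), the netrin receptor gene Unc5b (0.22) and Dpysl2 (0.17), which encodes a collapsin response mediator. The 18 detected genes thus had ratios between -1.41 and 0.33, and Gap43 at 1.68 lay above all of them.

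Other intermediate filament genes with a named probe were detected at a share of 33.3%, against 43.4% of all named genes. Of 9 with a named probe, 3 were: the lamin gene Lmna (log2 ratio 0.22), the filament partner synemin, Synm (bound of -0.41, control array only), and the keratin gene Krt18, which was 1.88-fold higher. The other neurofilament genes with a probe, Nefl and Nefh, were detected on neither array. Nefl read 146.6 and 145.6, with scores of 0.721 and 0.805, and Nefh 131.0 and 127.5. Prph (peripherin) and the astrocyte filament gene Gfap were not detected either. Nefm was therefore the one neurofilament gene of the 3 with a probe that was called present, and only with FGF2.

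Partners of Chrna1 could be followed for few genes. Of 8 acetylcholine receptor and neuromuscular junction genes with a named probe, 1 was detected, or 12.5%, against 43.4% of all named genes. That gene, Agrn (agrin, which clusters receptors at the junction), read 4114 and 3046 and had a log2 ratio of -0.47. Chrng, the gamma subunit of the fetal muscle receptor, read 142.1 and 114.1 with scores of 0.636 and 0.135, and Musk, the receptor kinase of the junction, 108.8 and 100.2. The neuronal subunit genes Chrna3, Chrna4, Chrna5 and Chrnb2 were not detected on either array. The alpha subunit was thus the one receptor subunit of the 6 with a named probe that was called present. Its other probe was not detected, and the muscle subunit genes Chrnb1, Chrnd and Chrne had no named probe.

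Of myelin genes related to Pmp22 by function, 2 of 8 with a named probe were detected, or 25%, against 43.4% of all named genes. Both were detected on the FGF2 array only and barely above the floor. Cnp and Egr2, a phosphodiesterase of myelinating cells and a transcription factor of Schwann cells, had bounds of 0.05 each, whose sign follows from the array on which they were detected. The myelin genes Mog, Mobp and Prx were detected on neither array, whereas Pmp22 was detected on both.

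Among RGS and G protein genes, 12 of 19 with a named probe were detected, or 63.2%, against 43.4% of all named genes. The median log2 ratio of the 12 was -0.01. Other RGS genes did not share the ratio of Rgs4. Rgs17 was 1.56-fold higher (224.5 against 331.2), Rgs10 had a log2 ratio of -0.32 and Rgs3 one of -0.01. Rgs1, Rgs2, Rgs8 and Rgs20 were not detected on either array. Of the G protein subunits on which such proteins act, Gnaq had a log2 ratio of -0.16 and Gnai1, detected on the control array only, a bound of -0.09. The beta subunit gene Gnb4 was 1.81-fold higher on its brighter probe and 1.47-fold on the other. The stimulatory subunit gene Gnas had a log2 ratio of -0.53. The 12 genes lay between -0.53 and 0.85, far from the bound of -2.45 for Rgs4.

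**Figure D4:**
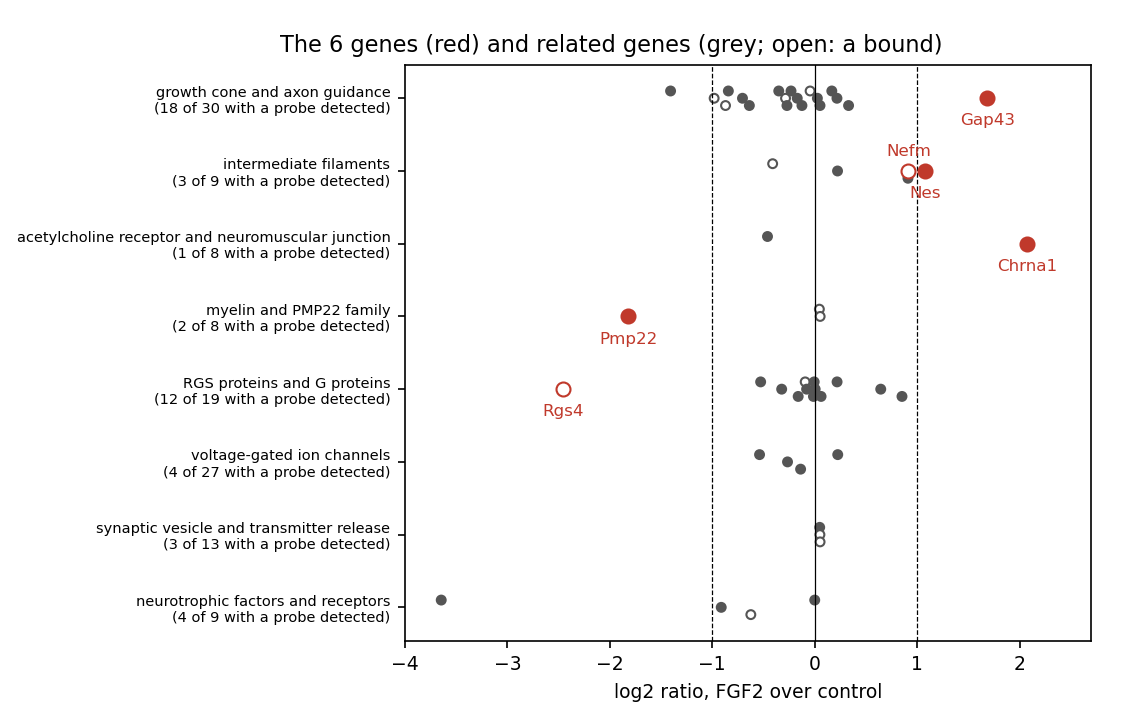
Log2 ratio of FGF2 over control for the 6 genes (red) and for the detected genes of 8 related lists (grey), open where the ratio is a bound; dashed lines mark 2-fold. Gap43 at 1.68 lies above the 18 detected growth cone and guidance genes and Rgs4 at -2.45 below the 12 detected RGS and G protein genes, while only 1 to 3 genes were detected on the lists of Chrna1, Pmp22, Nes and Nefm; Ptn, at -3.65 on the list of neurotrophic factors, is the lowest point.

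Markers of the cell types in which these genes are best known were checked as a group. For scale, 43.4% of all named genes were detected on at least 1 array, and most of these marker sets are small. Of 9 neuron markers with a named probe, 2 were detected: the tubulin gene Tubb3 (log2 ratio -0.17) and Syn1 (bound of 0.05, FGF2 array only). Snap25, Syt1, Elavl3, Elavl4, Dcx, Map2 and Nefl were not. The 12 probes of the 9 genes summed to 1815 without FGF2 and 1771 with FGF2, against 1686 and 1590 for 12 probes at the background medians. None of 4 markers of Schwann cells and neural crest (among them S100b, Foxd3 and Ngfr) was detected, with sums of 548.4 and 508.2 against 562 and 530 at background. None of 5 astrocyte and oligodendrocyte markers (Gfap, Aqp4, Slc1a2, Olig2 and Mog) was detected either, with sums of 724.6 and 687.4 against 702.5 and 662.5. Of neural progenitor markers 1 of 4 was detected, Prom1 (log2 ratio 0.31), while Sox2, Pax6 and Msi1 were not, and the sums were 596.5 and 631.2 against 562 and 530. Skeletal muscle was poorly covered: Myh1 was the single marker with a named probe, at 121.9 and 113.4, and was not detected. All 6 fibroblast markers with a named probe (Col1a1, Col1a2, Col3a1, Dcn, Prrx1 and S100a4) were detected on both arrays, with sums over 8 probes of 20575 and 15667. Their ratios differed in sign: Col1a1 was 3.38-fold lower and Col1a2 2.46-fold, Col3a1 and Prrx1 had log2 ratios of -0.57 and -0.55, Dcn stood at 0.42 and S100a4 was 1.68-fold higher, with a median of -0.56. The part of these differences in the results above was not tested.

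For the genes detected on both arrays, the named genes with the nearest log2 ratio over the 2 arrays were looked up among 2882 named genes detected on both. Nearest to Chrna1 (2.07) were Spp1 (2.01), which encodes osteopontin, and the chemokine gene Ccl2 (1.98). Nearest to Gap43 (1.68) were the granzyme gene Gzme (1.71) and the cyclin gene Ccnd1 (1.66). Nearest to Nes (1.08) were Ugt1a6b and Dyrk3, at 1.08 and 1.07. Nearest to Pmp22 (-1.82) were Limch1 (-1.83) and Zfp521 (-1.80). The normalized control value of Gzme, 195.25, was close to the floor of 191.7. Gzme and Ugt1a6b also belong to families of similar genes, so their values are uncertain. A like ratio over 2 arrays says nothing of a shared role.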

How the data were processed

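Total RNA of the 2 cultures (300 ng, linear amplification, 6 h of in vitro transcription, Cy3, per the labels' protocols) was read on Illumina bead arrays with BeadStudio 1.0, per the submitters' processing notes. The deposited array files give an average signal intensity, a bead spread and a detection score from 0 to 1 for each probe, per the file headers. The intensities hold background and were not scaled. The authors' processed table holds the control signal less 139.2. Its FGF2 values are the signal less 131.5, with this difference then multiplied by 1.054. It lists a value only at a score of at least 0.99. No source used here says how these numbers were set.

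Numbers of 5 or more digits after 1 or 2 zeros in a probe identifier were looked up as gene IDs (RefSeq, GRCm38.p6): 8884 of 9523 (93.3%) matched, and 9 further probes were named by accession. The other 15151 probes were unnamed. Signals were quantile normalized, with an array's lowest detected signal (191.7 and 193.1) as the floor. Each gene's log2 ratio, FGF2 over control, is that of its brightest detected probe. A gene detected on 1 array has a bound, which depends on the scaling and the floor. A bead error combines the relative bead spreads of both arrays, as deposited. No test was run, with 1 array per group. Members and lists were chosen with earlier results of these data known. All 6 members are given with every probe. Related genes are named where detected and among the 4 largest ratios of a list past 1.5-fold, or as close relatives of a member. Other related genes in the text were picked after their values were seen, and some related genes are not reported here. Alternatives covered scaling, floor, background, detection, brightness, fold and choice of probe. The calculation was tested on simulated data. Scripts ran in Python 3.11.15 (pandas 2.3.3, numpy 2.4.6, scipy 1.17.1).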

Additional observations from a re-analysis of the deposited data

How the results depend on the processing

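Of 36 alternative values for the 6 genes none changed sign, and 31 moved by less than 0.18, the scatter between detected probes of a gene. The exceptions were the log2 ratios in the authors' processed table of Nes (1.495), Nefm (1.98), Chrna1 (2.99) and Rgs4 (-4.01), where background had been subtracted, and that of Chrna1 with 50 added (1.88). Some of the 36 values could not move. Each gene has 1 detected probe, so the mean of detected probes equals the main value. Gap43, Nes, Chrna1 and Pmp22 score 1 on both arrays, so detection at 0.95 left them unchanged. With a floor, the signs of Nefm and Rgs4 follow from the array on which each was detected. Genes at least 2-fold higher numbered 115 and those lower 155. These counts were 290 and 389 in the authors' processed table, and 364 and 468 at 1.5-fold. Of the related genes, 3 were at least 1.5-fold higher and 9 lower. Among genes with a signal of at least 427.2, a filter that leaves fewer genes, the counts were 1 and 4. Of 63 alternative list medians, 58 stayed within 0.18. The others were -0.049 for growth cone genes and -2.28 for neurotrophic genes among brighter genes, 0.57 for intermediate filaments detected on both arrays, -0.00039 for ion channels with detection at 0.95, and -1.34 for neurotrophic genes in the authors' processed table. The -2.28 rests on Ptn and Sort1 alone, and the 0.57 on Lmna and Krt18 alone. The causes were not tested. Of 86 alternative values for single related genes 11 moved and 0 changed sign. No scaling moved the median of all genes by more than 0.1. No paired analysis was possible because each group holds 1 array. Signal over background limits what can be said of Nefm and Rgs4, each at background level on 1 array.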

Other observations

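Genes of electrical excitability itself were hardly measurable in these fibroblasts. Of 27 genes of voltage-gated and related ion channels with a named probe, 4 were detected, or 14.8%, against 43.4% of all named genes. None of the 4 differed by 1.5-fold after quantile normalization. They were the potassium channel genes Kcnk2 (log2 ratio -0.14) and Kcne4 (0.22), the latter a regulatory subunit, and the calcium channel genes Cacna2d1 (-0.27) and Cacna1c (-0.54). Cacna1c was 1.45-fold lower by this measure, but past 1.5-fold in the authors' processed table (169.7 against 72.6). The sodium channel genes Scn1a, Scn3b, Scn7a and Scn8a went undetected. Of 13 genes of synaptic vesicles and transmitter release, 3 were detected, or 23.1%, and none differed by 1.5-fold. Among them, Syn1 and Rab3a had bounds of 0.05 from the FGF2 array.

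Of 9 neurotrophic factors and receptors with a named probe, 4 were detected, or 44.4%, near the 43.4% of all named genes. The median log2 ratio of the 4 was -0.77, against 0.03 over all named genes. It was -2.28 when only the brighter of the 4, Ptn and Sort1, were kept. With all 4 kept it was -1.34 in the authors' processed table, which differs in background, scaling and floor. The growth factor gene Ptn stood at -3.65. Sort1 (sortilin), a sorting receptor that also binds neurotrophin precursors, was 1.88-fold lower by the detected probe of 2, which read 863.2 and 436.9. Cntf, detected on the control array only, was at least 1.54-fold lower, a bound whose sign follows from that array. Gfra1, a receptor component for GDNF, had a log2 ratio of 0.00028. The neurotrophin receptor genes Ntrk2, Ntrk3 and Ngfr were detected on neither array.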
